A study of Mus musculus with 9 samples.

Results

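Rab GTPases, the largest branch of the Ras superfamily of small GTPases, were examined by RNA-seq in macrophages grown from mouse bone marrow (BMDMs), which are primary cells. The Rab genes were taken from the count table by symbol, as Rab followed by a number and at most one letter and one digit. This gave 58 of 24061 gene symbols, and the counts of all rows of a symbol were summed. No measured value entered this rule, although it was chosen with earlier results of these data known. Cells came from the bone marrow of female C57BL/6J mice aged 8 to 10 weeks and were grown in L-cell conditioned medium, a source of macrophage growth factor. They were then kept without serum for 1 day before treatment. The medium at treatment, the same in each group, held no serum and 4% of L-cell medium. The Veh group received the solvent DMSO alone. The LPS group received DMSO and then 10 ng/mL lipopolysaccharide, a bacterial ligand of TLR4, for 2 hr. In the T0+LPS group, 500 nM of the liver X receptor (LXR) agonist T0901317 (T0) replaced DMSO for 3 hr and stayed in the medium during the 2 hr of LPS. Each group had 3 libraries. The methods describe them as separately differentiated cultures. The sources used here do not say whether Veh cultures were kept for the further 2 hr, and there was no group with T0 alone.

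Rab proteins are molecular switches on the surface of membranes. Guanine nucleotide exchange factors (GEFs) load them with GTP, GTPase-activating proteins (GAPs) switch them off, and the loaded form recruits effectors such as tethers, motors and kinases. Each Rab sits mainly on its own set of compartments, so the family is commonly read as a map of traffic: Rab1 and Rab2 between the endoplasmic reticulum (ER) and the Golgi, Rab5 on early endosomes, Rab11 on recycling endosomes, Rab7 on late endosomes and lysosomes, and Rab3, Rab8, Rab10 and Rab27 in secretion. In macrophages the same proteins control how a phagosome matures into a degradative compartment, how receptors and cytokines reach the surface and how autophagy proceeds.

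The 9 libraries held between 13299044 and 16467983 counted reads. Levels are given as CPM, counts relative to a library's size after scaling by the TMM factors of edgeR, and levels of different genes are compared only as CPM per kb of exon that no other row of the table covers. Reads on bases shared by several rows were not in the counts. TMM factors were 1.14 in all Veh libraries and 0.931 to 0.948 in the other 6, so fold changes against Veh depend on the scaling more than those of T0+LPS against LPS. Of 9 macrophage markers listed, 8 were in the table, which lacked Adgre1, and 7 of these had 1 CPM or more in all 9 libraries. Itgam, the eighth, had 3 unshared bases and 0 reads. By group the macrophage sum was 24739 to 26966 in Veh, 29401 to 30974 in LPS and 32007 to 33518 CPM in T0+LPS. Most of it was Lyz2, with means of 19749, 21425 and 23736 CPM in Veh, LPS and T0+LPS. Means of Lyz2, Cd14, Csf1r, Cd68 and Ptprc were higher in LPS than in Veh. Those of Fcgr1 and Mrc1 were lower, at 70.8 against 127 CPM and 502 against 528 CPM. Neutrophil markers, of which 0 of 6 reached 1 CPM in all libraries and S100a9 (3 unshared bases) was at 0, summed to 1.28 to 1.97 CPM in Veh, 2.93 to 3.93 in LPS and 2.30 to 2.82 in T0+LPS. Dendritic cell markers, 0 of 5 at that level and Siglech at 0, summed to 0.405 to 0.529, 2.24 to 2.91 and 2.08 to 2.99 CPM. T cell markers, of which Cd4 alone of 4 reached 1 CPM and Cd3e was at 0, summed to 2.64 to 3.37, 1.62 to 2.47 and 1.94 to 2.59 CPM. Sums were below 1 CPM for B cell, mast cell and fibroblast markers and 0 for erythroid markers, of which Hba-a1, Hbb-bs and Alas2 had 6, 9 and 45 unshared bases. The part of these levels in the Rab results was not tested. Ptgs2, the gene of the prostaglandin synthase Cox2, had a mean of 1.45 CPM in Veh and 849.5 CPM in LPS, and the LXR target Abcg1, a cholesterol exporter, had 381 CPM in LPS and 1622 CPM in T0+LPS. Il1b and Tnf, the latter counted on 48 unshared bases, were higher in LPS than in Veh, with log2 fold changes of 9.34 (adjusted p = 5.7e-17) and 6.08 (adjusted p = 1.3e-10) in edgeR's quasi-likelihood test, with p adjusted by Benjamini-Hochberg. Abca1 and Srebf1, both LXR targets, were higher in T0+LPS than in LPS, with log2 fold changes of 1.47 (adjusted p = 1.4e-10) and 1.30 (adjusted p = 4.8e-11) in the same edgeR test.

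BMDMs expressed most of the Rab family. Of the 58 genes, 38 were expressed, meaning at least 1 CPM in all 3 libraries of at least 1 group, 10 were low, 8 were at the floor of at most 3 counts in each library, and 2 could not be measured. All 6 early endosome Rab genes were expressed (Rab5a, Rab5b, Rab5c, Rab21, Rab22a and Rab31), as were 6 of 7 of the late endosome, lysosome and autophagy group (Rab7, Rab7l1, Rab9, Rab12, Rab24 and Rab34). Of 12 ER and Golgi genes, 8 were expressed (Rab1, Rab1b, Rab2a, Rab2b, Rab6a, Rab6b, Rab33b and Rab43), and of 9 recycling endosome genes 6 (Rab4a, Rab4b, Rab11a, Rab11b, Rab14 and Rab35). Of 13 secretion and exocytosis genes, Rab3a among them, which could not be measured, 6 were expressed (Rab3d, Rab8a, Rab8b, Rab10, Rab13 and Rab27a). Of 5 genes of phagosomes and lysosome-related organelles, Rab20, Rab32 and Rab39 were expressed, and of the 6 cilium and other genes Rab19, Rab28 and Rab40c. The same 38 genes had enough counts to be tested in both comparisons. Because each of them is expressed in at least 1 group by this rule, counts below refer to the 38 and not to the family.

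Several of the Rab genes that were absent or nearly so are known from neurons, epithelia or melanocytes. No library held a read on Rab3c or Rab27b, which work in regulated secretion, on the epithelial Rab17 or on Rab9b. Rab27b and Rab17 were counted on 387 of 6977 and 551 of 1790 bases of their longest row, so reads elsewhere on them may be missing. Rab3b, Rab25, Rab37 and Rab39b had at most 2 counts in any library. A count of 3 corresponded to 0.160 to 0.238 CPM, depending on the library, so expression below that was not detectable at this depth. Low genes were Rab15, Rab23, Rab26, Rab30, Rab33a, Rab36, Rab38, Rab40b, Rab42 and Rab44, whose highest count in any library lay between 4 and 15. Rab38, the relative of Rab32 in melanosome formation, had the highest of these. Rab23, counted on 444 of 4321 bases, had 0.524 CPM per kb in Veh, near the 0.782 of Rab39, which was expressed by the rule on CPM. Rab18 and Rab3a had 18 and 5 unshared bases and 0 reads, so nothing can be said of their expression. Rab6a, a Golgi Rab, was counted on 212 of the 3214 bases of its longest row, and its low level here is a level of those bases.

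In Veh the highest level per kb was that of Rab7, at 351 ± 8.75 CPM per kb (SD, n = 3). This Rab of late endosomes, lysosomes and maturing phagosomes was counted on a row of 624 bases. Rab5c, an early endosome Rab, followed at 233 ± 4.80, then Rab8b, which carries cargo from the Golgi and recycling endosome to the surface, at 202 ± 7.76. Rab1b and Rab1 (Rab1A), which drive transport from the ER to the Golgi, reached 140.2 ± 1.34 and 106 ± 1.18 CPM per kb. The first 4 places did not overlap between libraries. The fifth did with the next, since Rab1 spanned 104 to 107 and Rab14, a Rab of recycling endosomes and phagosomes, 104 to 106 CPM per kb. These 5 genes held 47.0 ± 0.527% in Veh, 42.8 ± 0.254% in LPS and 42.2 ± 0.331% in T0+LPS of the summed Rab level per kb, which was 2198 ± 19.4, 2812 ± 17.4 and 2800.3 ± 17.1 CPM per kb in Veh, LPS and T0+LPS (SD, n = 3). The distance of this sum between Veh and the other groups depends on the TMM factors, and its SD does not include that. With library totals the median log2 fold change of the Rab genes in LPS against Veh was -0.16. The first place of Rab7 depends on its short row. Its mean of 219 CPM in Veh lay below Rab8b (962), Rab5c (366), Rab31 (336), Rab14 (322), Rab10 (294), Rab1 (281) and Rab1b (257). The RefSeq starts of Rab7 lie upstream of the start in the count table, so its row may not cover the whole transcript. Sums and shares of level per kb that include Rab7 rest on this row too. At the other end Rab34, Rab27a and Rab39 had 2.90, 1.37 and 0.782 CPM per kb in Veh. Rab34 was counted on 515 unshared bases, against 1721 in its longest row. In bulk RNA a lower level can mean fewer cells of a kind or less RNA per cell, and these cannot be told apart.

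By library, Rab7 had 225, 214 and 219 CPM in the Veh libraries, 287, 281 and 278 CPM in LPS and 261, 275 and 275 CPM in T0+LPS. All LPS-stimulated libraries lay above all Veh libraries on this scale, although Rab7 was not called in LPS against Veh with library totals (adjusted p = 0.071 in edgeR). Rab5c had 374, 366 and 359 CPM in the Veh libraries, 403, 403 and 400.1 CPM in LPS and 418, 417 and 406 CPM in T0+LPS, again without overlap of Veh with the other groups on this scale, although its direction turned with library totals (log2 -0.14, adjusted p = 0.0028 in edgeR). Rab8b, whose 4751 bases gave it the highest CPM of the family, had 996, 967 and 923 CPM in the Veh libraries, 1009, 995 and 1008 CPM in LPS and 932, 961 and 956 CPM in T0+LPS. The Veh and LPS ranges of Rab8b overlapped. Rab1b had 259, 255 and 258 CPM in the Veh libraries, 273, 276 and 257 CPM in LPS and 283, 268 and 270.0 CPM in T0+LPS, and its Veh and LPS ranges also overlapped. Rab1 had 283, 278 and 282 CPM in the Veh libraries, 369, 368 and 361 CPM in LPS and 366, 359 and 363 CPM in T0+LPS, with every Veh library below the rest.

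**Figure D1:**
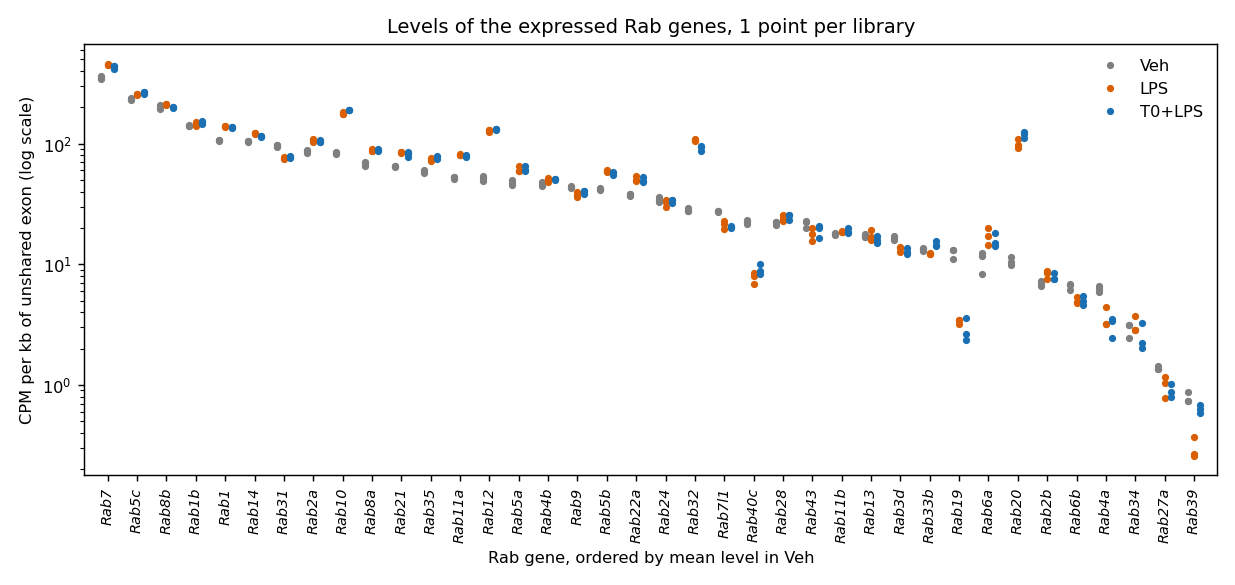
Level of each of the 38 expressed Rab genes (horizontal axis, ordered by mean level in Veh) as CPM per kb of unshared exon on a log scale (vertical axis), 1 point per library, 3 libraries each for Veh, LPS and T0+LPS. Rab7, counted on a row of 624 bases, leads in all groups. Rab20, Rab32, Rab12 and Rab10 show the widest gaps upward between Veh and the LPS-stimulated libraries.

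Close relatives differed widely in level, and the shares of several pairs did not overlap between Veh and LPS libraries. Among the Rab5 paralogs, which share the early endosome, Rab5c held 72.3 ± 0.534% in Veh, 68.0 ± 0.987% in LPS and 69.0 ± 0.603% in T0+LPS of their summed level per kb (mean ± SD, n = 3, as for all shares). Rab1b held 57.0 ± 0.0584% in Veh, 51.5 ± 0.675% in LPS and 52.2 ± 0.560% in T0+LPS of the Rab1 pair, with no overlap of its Veh libraries with the others. Rab8b held 74.8 ± 1.16% in Veh, 70.7 ± 0.672% in LPS and 69.3 ± 0.816% in T0+LPS of the Rab8 pair. In all 3 subfamilies the leading gene had a smaller share in every LPS library than in any Veh library. The opposite held for Rab11a, the main Rab of the recycling endosome, with 74.4 ± 0.662% in Veh, 81.2 ± 0.237% in LPS and 80.7 ± 0.689% in T0+LPS of the Rab11 subfamily, and for Rab4b, a Rab of fast recycling, with 88.2 ± 0.530% in Veh, 93.3 ± 0.997% in LPS and 94.2 ± 1.01% in T0+LPS of the Rab4 pair. Rab2a held 92.5 ± 0.494% in Veh, 92.8 ± 0.512% in LPS and 93.0 ± 0.573% in T0+LPS of the Rab2 pair, and these ranges overlapped between groups. Rab32 and Rab33b stood almost alone beside Rab38 and Rab33a, with at least 99.3% and 98.1% of their pairs in each group mean. These shares do not depend on the scaling of libraries. They were not tested.

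**Figure D2:**
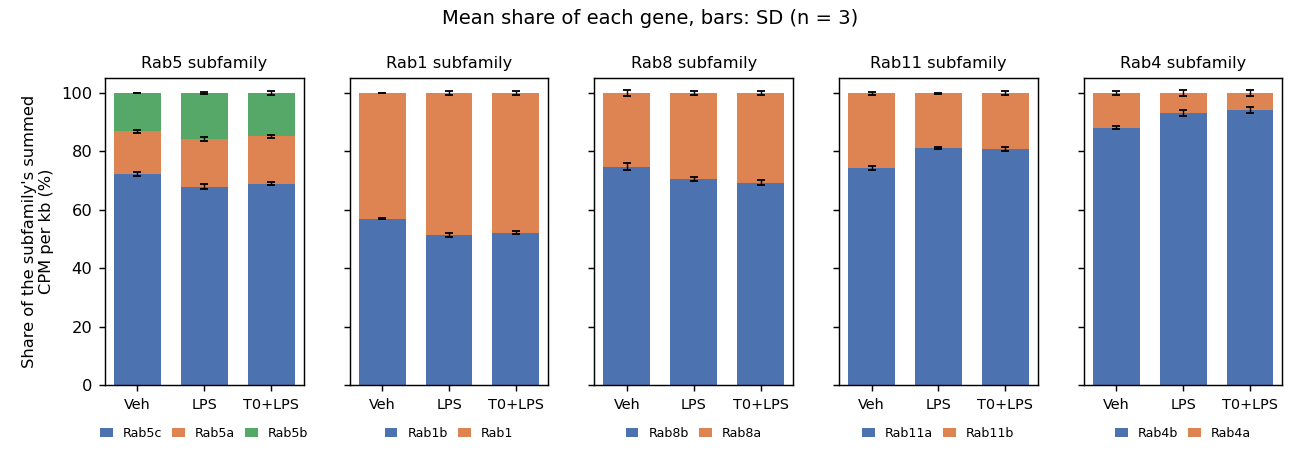
Share of each paralog in the summed CPM per kb of its subfamily (vertical axis, percent) in Veh, LPS and T0+LPS for the Rab5, Rab1, Rab8, Rab11 and Rab4 subfamilies, as stacked bars of the mean with SD over 3 libraries. Rab5c, Rab1b and Rab8b hold a smaller share in LPS than in Veh, Rab11a and Rab4b a larger one. Rab25, a minor member of the Rab11 subfamily at the floor of counts, is not drawn.

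The comparison of LPS with Veh asks which Rab genes respond to a TLR4 ligand within 2 hr. Of the 38 tested genes, 18 were higher in LPS, 11 were lower and 9 were not called at an adjusted p under 0.05 in edgeR's quasi-likelihood test, with p adjusted by Benjamini-Hochberg, fitted to all 9559 genes tested. Over all those genes 32.9% were called higher and 31.2% lower, against 47.4% and 28.9% of the Rab genes. The median log2 fold change was 0.13 for the Rab genes and -0.002 for all genes. Relative to library totals instead of TMM factors, the median of all genes moved to -0.28 and that of the Rab genes to -0.16, with 9 Rab genes called higher and 19 lower. The share of higher genes among the called Rab genes was then 32.1% instead of 62.1%. Every change reported here is therefore relative to the typical gene. Rab20, Rab32, Rab12, Rab10, Rab19, Rab40c and Rab39 kept their direction and call under both scalings.

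**Figure D3:**
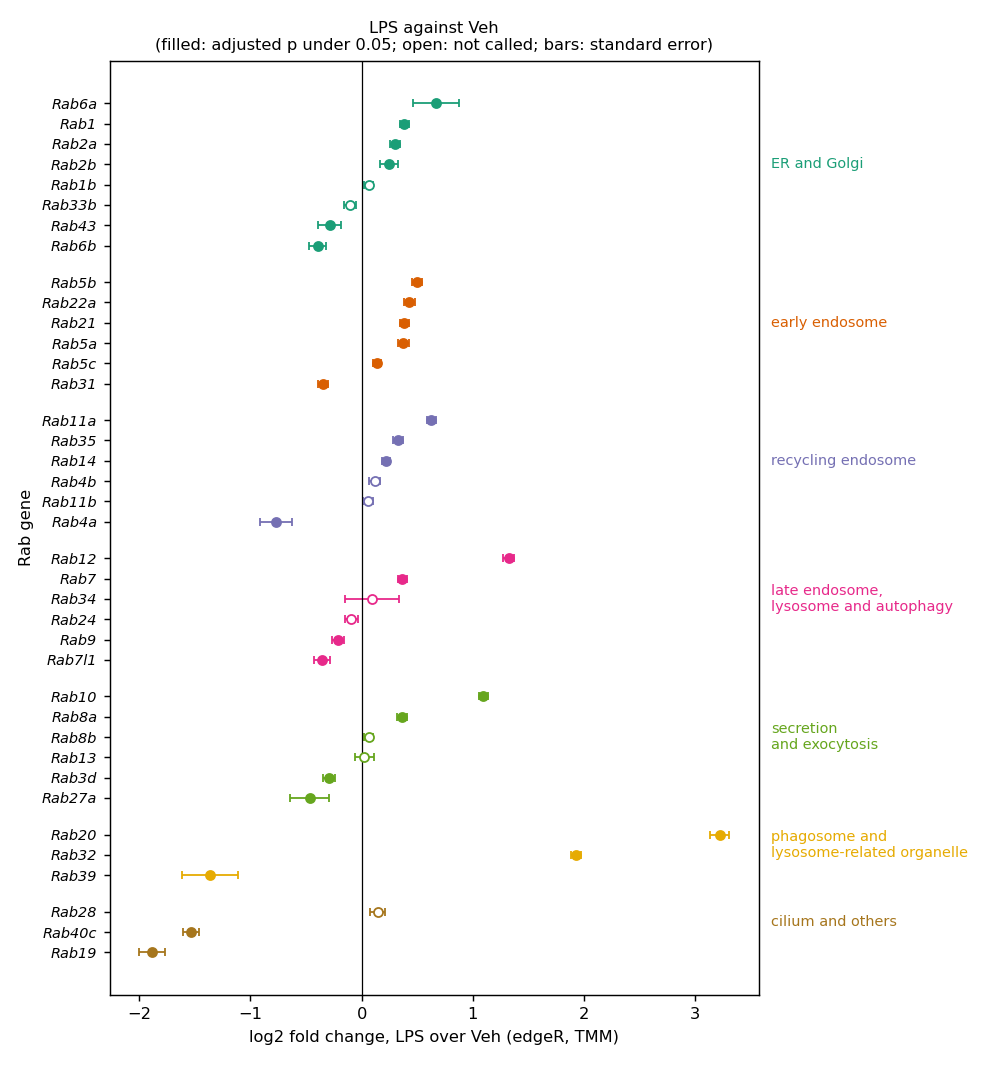
Log2 fold change of LPS over Veh (horizontal axis) for the 38 tested Rab genes, grouped by site of action, with standard errors as bars. Filled points have an adjusted p under 0.05 in edgeR, and Rab20, Rab32, Rab12 and Rab10 lie above 1 and Rab19, Rab40c and Rab39 below -1. Of the filled points, those of Rab5c, Rab14 and Rab2b fall below 0 when libraries are scaled by their totals. So do the open points of Rab1b, Rab4b, Rab8b, Rab11b, Rab13, Rab28 and Rab34.

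Rab20 and Rab32, of phagosomes and lysosome-related organelles, rose most. Rab20, which acts in phagosome maturation in macrophages, had 7.54, 7.14 and 8.34 CPM in the Veh libraries, 69.7, 78.4 and 66.7 CPM in LPS and 89.6, 85.9 and 79.7 CPM in T0+LPS. Every LPS-stimulated library exceeded the highest Veh library several-fold. Rab20 rose 9.33-fold, a log2 fold change of 3.22 ± 0.085 (adjusted p = 5.3e-15) in edgeR. Fold changes are given on the log2 scale ± their standard error, with p adjusted over all genes tested. It lies at chr8:11453977-11478499 on the minus strand of mm10, and it moved from place 32 of 38 in Veh to place 11 in LPS in the order of levels per kb. Rab32, which serves lysosome-related organelles and defence against intracellular bacteria, had 56.6, 60.0 and 56.3 CPM in the Veh libraries, 221, 214 and 222 CPM in LPS and 178, 191 and 197 CPM in T0+LPS. Its LPS libraries were the highest and the Veh libraries the lowest, with no overlap among the 3 groups. Rab32 rose 3.81-fold, log2 1.93 ± 0.047 (adjusted p = 2.0e-15) in edgeR. It lies at chr10:10545039-10558207 on the minus strand and went from place 21 to place 9.

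Rab39, another Rab linked to phagosomes, went the other way. It had 2.19, 2.58 and 2.20 CPM in the Veh libraries, 1.11, 0.801 and 0.772 CPM in LPS and 1.75, 2.02 and 1.87 CPM in T0+LPS, which rests on few reads: 41, 39 and 38 in Veh, 14, 11 and 10 in LPS and 23, 29 and 27 in T0+LPS. The 3 groups did not overlap, with LPS lowest. Its log2 fold change in LPS was -1.37 ± 0.25 (adjusted p = 1.7e-04) in edgeR, and the gene lies at chr9:53684110-53706232 on the minus strand. Together the 5 genes of this group, Rab38 and Rab39b included, held 1.81 ± 0.0415% in Veh, 7.34 ± 0.198% in LPS and 7.53 ± 0.0634% in T0+LPS of the summed Rab level per kb. Nearly all of that was Rab20 and Rab32.

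**Figure D4:**
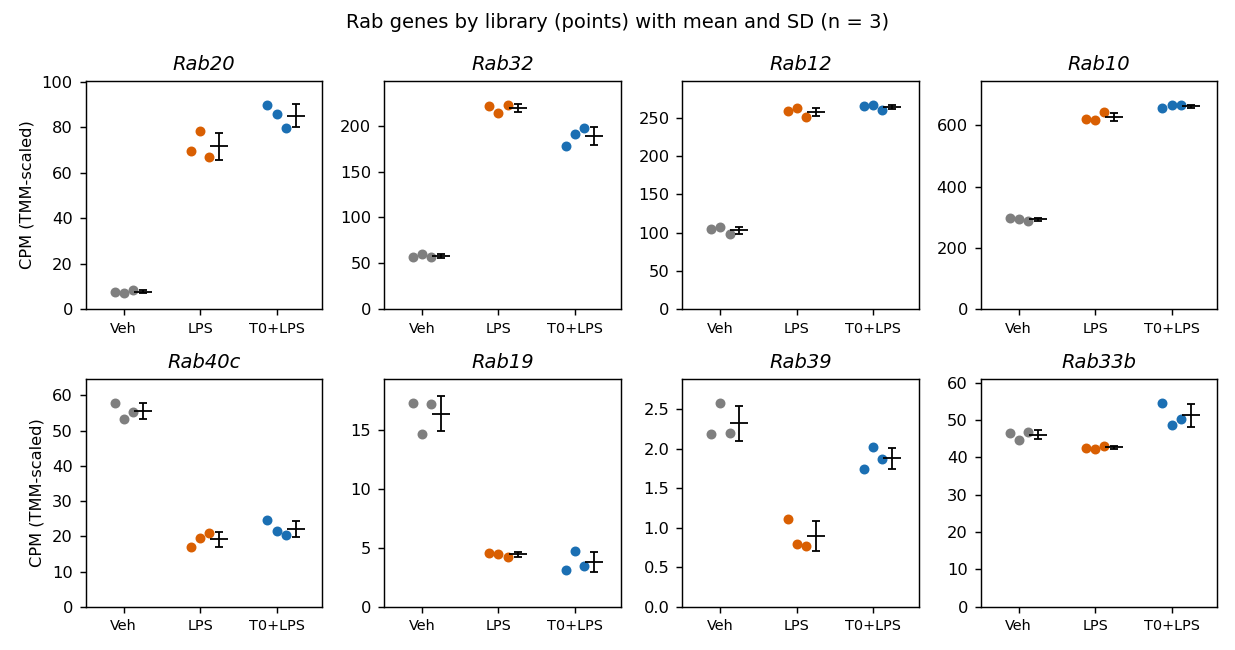
Level in CPM (vertical axes, from 0) of 8 Rab genes in each library of Veh, LPS and T0+LPS (points), with the mean and SD over 3 libraries beside them. Rab20, Rab32, Rab12 and Rab10 are higher in every LPS library than in any Veh library, and Rab40c, Rab19 and Rab39 are lower. In Rab32, Rab39, Rab33b, Rab20 and Rab10 the T0+LPS libraries do not overlap the LPS libraries, although Rab20 and Rab10 were not called with T0. The same absence of overlap occurs in Rab5c, Rab7, Rab8b and Rab14, which are not drawn and were not called with T0.

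Rab12 and Rab10 were the other genes with a log2 fold change above 1. Rab12, which directs cargo from recycling endosomes to lysosomes and takes part in autophagy, had 104, 107 and 98.4 CPM in the Veh libraries, 259, 263 and 252 CPM in LPS and 266, 266 and 261 CPM in T0+LPS. All LPS-stimulated libraries lay above Veh, and LPS and T0+LPS overlapped. The change was 1.32 ± 0.046 (adjusted p = 2.5e-13) on the log2 scale in edgeR, 2.50-fold, at chr17:66494512-66519670 on the minus strand. Rab10, which brings Golgi-derived vesicles to the surface and has been tied to delivery of TLR4 in macrophages, had 299, 294 and 289 CPM in the Veh libraries, 620.3, 617 and 642 CPM in LPS and 657, 665 and 665 CPM in T0+LPS. Veh was again lowest, and the T0+LPS libraries lay just above the LPS libraries. The log2 fold change in LPS was 1.10 ± 0.040 (adjusted p = 4.3e-13) in edgeR, 2.14-fold, at chr12:3247428-3309969 on the minus strand. By level per kb Rab10 went from place 9 in Veh to place 4 in LPS and Rab12 from 14 to 7. Library totals gave log2 fold changes of 2.94 for Rab20, 1.65 for Rab32, 1.04 for Rab12 and 0.81 for Rab10, all still called.

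The promoters of these 4 genes are printed to show what sequence lies at the start of the Rab genes that rose most. They are RefSeq sequences of GRCm38.p6 (mm10), 5′ to 3′ on the minus strand, on which all 4 genes lie, from 250 bases before to 50 bases after the start. Capitals mark matches to the motifs searched. The windows are chr8:11478591-11478890 for Rab20, chr10:10558158-10558457 for Rab32, chr17:66519621-66519920 for Rab12 and chr12:3309920-3310219 for Rab10. For Rab20 the RefSeq start lies 141 bases upstream of the start in the count table.
Rab20: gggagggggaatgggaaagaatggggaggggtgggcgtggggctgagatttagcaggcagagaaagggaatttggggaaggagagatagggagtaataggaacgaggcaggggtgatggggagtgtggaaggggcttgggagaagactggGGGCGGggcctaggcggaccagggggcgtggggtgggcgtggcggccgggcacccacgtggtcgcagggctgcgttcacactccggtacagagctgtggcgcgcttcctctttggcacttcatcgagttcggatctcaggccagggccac
Rab32: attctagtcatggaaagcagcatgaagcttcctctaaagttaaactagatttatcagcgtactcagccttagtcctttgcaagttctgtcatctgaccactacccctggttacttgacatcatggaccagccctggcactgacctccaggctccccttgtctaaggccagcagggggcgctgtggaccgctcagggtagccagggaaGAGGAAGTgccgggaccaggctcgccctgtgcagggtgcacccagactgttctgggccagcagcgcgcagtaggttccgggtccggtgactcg
Rab12: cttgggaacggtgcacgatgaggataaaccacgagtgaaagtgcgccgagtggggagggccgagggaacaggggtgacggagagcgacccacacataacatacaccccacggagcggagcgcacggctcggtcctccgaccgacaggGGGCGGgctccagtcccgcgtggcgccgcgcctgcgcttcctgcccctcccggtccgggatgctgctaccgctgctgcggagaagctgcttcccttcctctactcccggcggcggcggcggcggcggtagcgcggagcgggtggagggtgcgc
Rab10: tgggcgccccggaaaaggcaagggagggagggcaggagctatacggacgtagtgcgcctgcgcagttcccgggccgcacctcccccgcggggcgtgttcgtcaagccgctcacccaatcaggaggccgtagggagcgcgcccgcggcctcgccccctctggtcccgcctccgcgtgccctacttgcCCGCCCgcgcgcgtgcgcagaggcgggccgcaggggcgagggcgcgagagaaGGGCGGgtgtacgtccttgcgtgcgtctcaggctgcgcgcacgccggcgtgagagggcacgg

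Rab20 and Rab12 each have 1 GC box (GGGCGG), the site of Sp1-type factors, and Rab10 has 2. Rab32 has no GC box and 1 PU.1 site (GAGGAAGT), the motif of the macrophage lineage factor, starting 43 bases before the start. GC content was 64.3% for Rab20, 57.3% for Rab32, 70.7% for Rab12 and 74.7% for Rab10, and the number of CpG was 16, 10, 37 and 43. No windows were taken on chromosome 18, where Rab18 and Rab27b lie. Of the 58 Rab genes, 48 had windows, 60 in all. Their median GC content was 61.1% with 19.5 CpG, against 52.7% and 7 over all 32851 promoters. The search covered both strands, no motif searched contains another, and it also used AP-1 (TGANTCA), CRE (TGACGTCA), the lysosomal E-box (TCACGTGA), the TATA box (TATAAA), NF-kB and the LXR element DR4. The GC box was in 41 of the 60 Rab windows, against 35.7% of all promoters, and PU.1 in 2, against 3.2%. Windows with NF-kB, AP-1, CRE, E-box and TATA numbered 2, 3, 2, 3 and 4, against 4.51%, 7.81%, 1.79%, 0.974% and 13.6% of all promoters. The LXR DR4 was in 0 Rab windows and in 0.0944% of all promoters. A match is a match of letters only, and a missing one says only that the letters are not in the window.

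All 6 early endosome genes were called, where over all genes 32.9% were called higher and 31.2% lower. Of the 6, 5 rose relative to other genes (83.3%), of which Rab5c changed direction with library totals (log2 -0.14, adjusted p = 0.0028 in edgeR). Rab5b, Rab22a and Rab21, Rabs of early endosomes and endosomal sorting, had log2 fold changes of 0.50 ± 0.043 (adjusted p = 3.7e-08), 0.43 ± 0.051 (adjusted p = 1.9e-06) and 0.39 ± 0.043 (adjusted p = 7.7e-07) in edgeR. Those of Rab5a and Rab5c were 0.38 ± 0.053 (adjusted p = 1.2e-05) and 0.14 ± 0.039 (adjusted p = 0.0059). Rab31, which links endosomes with the trans-Golgi network, was the exception and fell by 0.35 on the log2 scale (± 0.041, adjusted p = 1.7e-06). In level per kb it went from place 7 to place 15. The group median was 0.38, and with library totals it was 0.10, with 3 genes higher and 2 lower.

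In the recycling endosome group 3 of 6 tested genes rose and 1 fell (1 higher and 3 lower with library totals). These shares, 50% and 16.7%, stand beside 32.9% and 31.2% of all genes and were not tested. Rab11a and Rab35, the latter a Rab of fast recycling from the surface, had log2 fold changes of 0.63 ± 0.043 (adjusted p = 2.2e-09) and 0.33 ± 0.044 (adjusted p = 7.2e-06) in edgeR. Rab14 had 0.22 ± 0.039 (adjusted p = 1.3e-04), and -0.065 (adjusted p = 0.14) with library totals. Rab4a fell by 0.77 on the log2 scale (± 0.14, adjusted p = 1.6e-04 in edgeR). Rab4b and Rab11b were not called, at 0.12 and 0.059. The difference between paralogs of the Rab11 and Rab4 subfamilies was not tested. Of 8 ER and Golgi genes, 4 rose, 2 fell and 2 were not called, against 1 higher and 4 lower with library totals. The 50% higher and 25% lower stand beside the same shares of all genes and were not tested either. Rab1 had 0.38 ± 0.039 (adjusted p = 2.8e-07), Rab2a 0.30 ± 0.043 (adjusted p = 1.5e-05) and Rab2b 0.25 ± 0.082 (adjusted p = 0.014) in edgeR, the last with -0.034 (adjusted p = 0.72) under library totals. Rab6a, counted on few bases, had 0.67 ± 0.21 (adjusted p = 0.0096), whereas Rab6b, its relative in retrograde Golgi traffic, had -0.40 ± 0.075 (adjusted p = 2.3e-04). Rab43, a further Golgi Rab counted on 709 unshared bases, against 4605 in its longest row, had -0.29 ± 0.10 (adjusted p = 0.021) in edgeR. Its call held in 3 of 6 fits without 1 library, with an adjusted p up to 0.11, and was lost in DESeq2, while those of Rab2b and Rab6a held in 4 of 6. Rab1b and Rab33b were not called, at 0.064 and -0.11.

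Of the late endosomal and of the secretory genes, 2 were higher and 2 lower of 6 in each group (1 and 3, and 1 and 4, with library totals). These shares, 33.3% each way, are near those of all genes, 32.9% and 31.2%. Beside Rab12, Rab7 rose, by log2 0.37 ± 0.041 (adjusted p = 9.0e-07) in edgeR. Rab9, which returns cargo from late endosomes to the Golgi, and Rab7l1 (Rab29), a partner of the kinase LRRK2, fell, with -0.21 ± 0.052 (adjusted p = 0.0021) and -0.36 ± 0.072 (adjusted p = 3.6e-04). Rab24, an autophagy Rab, and Rab34 were not called, at -0.092 and 0.094. In the secretory group Rab8a rose with Rab10, by 0.36 ± 0.045 (adjusted p = 2.9e-06) in edgeR. Rab3d of secretory granules and Rab27a of secretory lysosomes fell, with -0.30 ± 0.055 (adjusted p = 1.9e-04) and -0.47 ± 0.18 (adjusted p = 0.031). Rab27a kept its call in 2 of 6 fits without 1 library, with an adjusted p up to 0.14 in edgeR, and lost it in DESeq2. Rab8b and Rab13 were not called, at 0.064 and 0.023. Outside these groups Rab28, a ciliary Rab, was at 0.14 and not called.

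Rab40c and Rab19 fell most. Rab40c, which carries a SOCS box and works in a ubiquitin ligase, had 57.8, 53.2 and 55.4 CPM in the Veh libraries, 16.9, 19.5 and 20.9 CPM in LPS and 24.7, 21.6 and 20.3 CPM in T0+LPS. No LPS-stimulated library reached the level of any Veh library. Its log2 fold change was -1.53 ± 0.074 (adjusted p = 2.0e-11) in edgeR, 0.345 of the Veh level, at chr17:25882114-25919714 on the minus strand. Rab19, linked to the formation of cilia, had 17.3, 14.7 and 17.3 CPM in the Veh libraries, 4.60, 4.51 and 4.25 CPM in LPS and 3.12, 4.73 and 3.47 CPM in T0+LPS, and Veh again did not overlap the rest. The log2 fold change was -1.88 ± 0.12 (adjusted p = 5.3e-10) in edgeR, 0.271 of the Veh level, at chr6:39381428-39390379 on the plus strand. These genes had been at places 23 and 30 in Veh and were at 32 and 35 in LPS.

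Summed by site of action, the early endosome group held 23.7 ± 0.240% in Veh, 20.9 ± 0.416% in LPS and 21.0 ± 0.186% in T0+LPS of the Rab level per kb. The ER and Golgi group held 17.8 ± 0.300% in Veh, 16.0 ± 0.258% in LPS and 16.1 ± 0.229% in T0+LPS. In both, all Veh libraries were above all LPS libraries, although most of their called genes rose. The late endosome, lysosome and autophagy group held 23.3 ± 0.274% in Veh, 24.0 ± 0.353% in LPS and 23.6 ± 0.397% in T0+LPS, and the secretion group 17.7 ± 0.245% in Veh, 18.1 ± 0.280% in LPS and 18.1 ± 0.0966% in T0+LPS. Recycling endosome genes held 13.0 ± 0.144% in Veh, 12.4 ± 0.104% in LPS and 12.2 ± 0.0362% in T0+LPS, and the cilium and other genes 2.64 ± 0.133% in Veh, 1.27 ± 0.0708% in LPS and 1.33 ± 0.0660% in T0+LPS. The phagosome group had the smallest share in Veh and, with 7.34 ± 0.198%, exceeded the cilium and other genes in LPS. These shares are descriptions and were not tested.

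The comparison of T0+LPS with LPS asks which Rab genes differ when T0 is present with LPS. Without a group of T0 alone, an altered response to LPS and an effect of T0 apart from LPS cannot be told apart. Both comparisons share the LPS libraries, so their values are set side by side only. Of the 38 tested Rab genes, 2 were higher, 1 was lower and 35 were not called in edgeR's quasi-likelihood test, with p adjusted by Benjamini-Hochberg over 9348 genes. At an unadjusted p under 0.05, 3 were higher and 1 lower. Over all genes, 1.35% were called higher and 1.83% lower. The median log2 fold change was -0.004 for the Rab genes and 0.003 for all genes. The 35 genes not called spanned -0.32 (Rab34) to 0.25 (Rab20). All 6 early endosome, 6 recycling endosome, 6 late endosome and 6 secretory genes were among them. Rab5c, Rab7, Rab8b, Rab10, Rab14 and Rab20 were not called, although their T0+LPS libraries did not overlap the LPS libraries. How often this occurs over all genes was not counted, so an absence of overlap is given as description only.

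Rab32 was the Rab gene called lower with T0. From the library values given above, it went from 219 ± 4.47 CPM in LPS to 189 ± 10.1 CPM in T0+LPS (SD, n = 3), without overlap, against 57.6 ± 2.03 CPM in Veh. Its log2 fold change was -0.22 ± 0.050 (adjusted p = 0.026) in edgeR, beside 1.93 in LPS against Veh. Rab33b, a Golgi Rab that binds the autophagy protein Atg16L1, had 46.6, 44.8 and 46.9 CPM in the Veh libraries, 42.6, 42.4 and 43.2 CPM in LPS and 54.5, 48.7 and 50.4 CPM in T0+LPS, at chr3:51483966-51496212 on the plus strand. Its T0+LPS libraries were above all others. The log2 fold change was 0.26 ± 0.063 (adjusted p = 0.033) in edgeR, beside -0.11 (not called) in LPS against Veh. Rab39 had a mean of 0.894 CPM in LPS and 1.88 CPM in T0+LPS, closer to its 2.32 CPM in Veh. With T0 the log2 fold change was 1.07 ± 0.28 (adjusted p = 0.049) in edgeR.

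These 3 calls lay close to the threshold, and each was lost in some fits without 1 library. In the other settings run, Rab32 was called in 9 of 9, Rab33b in 8 of 9 and Rab39 in 6 of 8. With 1 of the 6 libraries left out, Rab32 was called in 3 of 6 fits, with an adjusted p up to 0.15 in edgeR, and lost the call when LPS library 1 or either of T0+LPS libraries 1 and 2 was missing. Rab33b was called in 2 of 6, with up to 0.16, and lost it without LPS replicates 1 or 2 or T0+LPS replicates 1 or 3. Rab39 was called in 0 of 6 in edgeR, with up to 0.17. In all these fits the direction stayed, with log2 fold changes of -0.25 to -0.17 for Rab32, 0.22 to 0.30 for Rab33b and 0.98 to 1.25 for Rab39. Just past the threshold was Rab20, with 71.6 ± 6.08 CPM in LPS and 85.1 ± 5.03 CPM in T0+LPS (SD, n = 3) and no overlap. Its log2 fold change was 0.25 ± 0.067 (adjusted p = 0.059) in edgeR, and it was called in 3 of 9 other settings. Rab12, Rab10, Rab40c and Rab19, the other genes with large LPS responses, were at 0.036, 0.081, 0.21 and -0.23 and were not called.

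**Figure D5:**
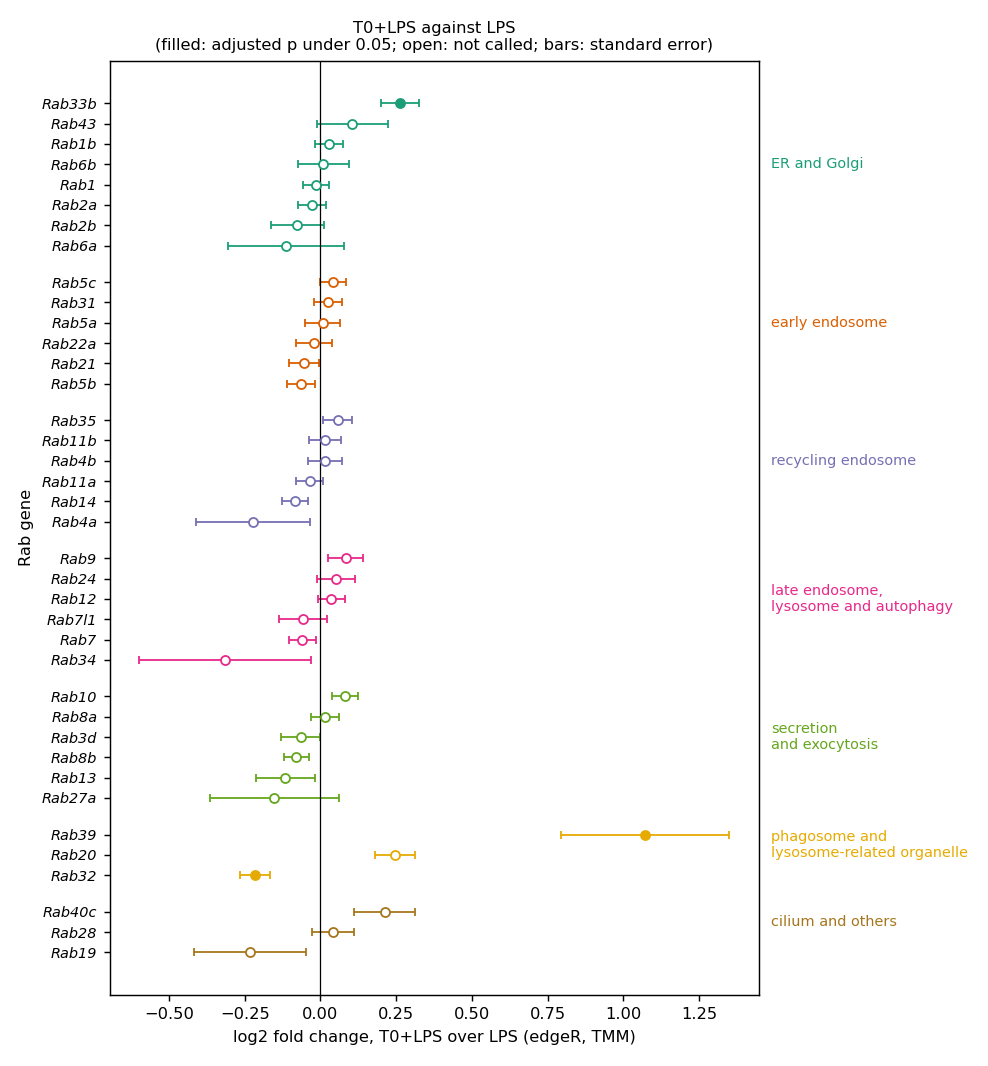
Log2 fold change of T0+LPS over LPS (horizontal axis) for the 38 tested Rab genes, grouped by site of action, with standard errors as bars. Of the 38, Rab33b, Rab39 and Rab32 have filled points, an adjusted p under 0.05 in edgeR, and the 35 open points lie between -0.32 and 0.25.

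Proteins that switch Rabs or act for them were followed by a list of 155 genes, of which 153 were in the table. In LPS against Veh, 32 of 106 tested were higher and 37 lower (30.2% and 34.9%), close to the 32.9% and 31.2% of all genes, and their median log2 fold change was -0.014. With library totals these counts were 20 and 67, beside 1696 and 5408 of the 9559 genes. Of 28 GEF genes, 9 were higher and 11 lower, of 27 GAP genes 8 and 11, of 10 genes that prenylate, extract or insert Rabs 3 and 1, and of 41 effector genes 12 and 14. In T0+LPS against LPS, 1 of 107 was higher and 2 were lower (0.935% and 1.87%), near the 1.35% and 1.83% of all genes.

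Rab11fip1, an effector of Rab11 in recycling, had the largest change on the list, with 2.62, 2.71 and 2.49 CPM in the Veh libraries, 64.4, 65.1 and 72.7 CPM in LPS and 46.0, 55.2 and 52.8 CPM in T0+LPS. Its log2 fold change was 4.69 ± 0.095 (adjusted p = 1.8e-16) in LPS against Veh in edgeR, and in T0+LPS against LPS it fell by 0.39 on the log2 scale (± 0.073, adjusted p = 0.0061). The 3 groups did not overlap. Micall2, an effector of Rab8 and Rab13, and Dennd4a, an exchange factor for Rab10, had log2 fold changes of 2.63 ± 0.058 (adjusted p = 5.8e-16) and 2.27 ± 0.064 (adjusted p = 1.3e-14) in edgeR. Rin3, an exchange factor for Rab5 and Rab31 counted on 395 of 3865 bases, had 1.99 ± 0.30 (adjusted p = 2.3e-05) and remained below 3 CPM. Tbc1d2, a GAP of Rab7, had 42.9, 43.5 and 38.5 CPM in Veh and 9.27, 9.75 and 10.2 CPM in LPS, a log2 fold change of -2.09 ± 0.083 (adjusted p = 1.5e-12) in edgeR. Plekhm1, an effector of Rab7 in fusion with lysosomes, had 439.6, 398 and 409 CPM in the Veh libraries, 112, 112 and 119.8 CPM in LPS and 143, 144 and 137 CPM in T0+LPS. It fell in LPS, with -1.86 ± 0.050 (adjusted p = 7.5e-15), and was the gene of the list called higher with T0, at 0.31 ± 0.051 (adjusted p = 0.0026) in edgeR. Every T0+LPS library was above every LPS library and below every Veh library. Lrrk2, the kinase that phosphorylates Rab8, Rab10, Rab12 and Rab29, had 10.7, 12.0 and 11.5 CPM in the Veh libraries, 20.4, 18.6 and 20.5 CPM in LPS and 12.0, 13.9 and 12.8 CPM in T0+LPS. It rose in LPS, with 0.80 ± 0.088 (adjusted p = 6.8e-07), and fell with T0, with -0.62 ± 0.094 (adjusted p = 0.0013) in edgeR. Its T0+LPS libraries lay below all LPS libraries. The T0 calls of Rab11fip1, Plekhm1 and Lrrk2 held in all 6 fits without 1 library and in the 9 other settings run, with an adjusted p of at most 0.028.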

How the data were processed

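Polyadenylated RNA of 3 Veh, 3 LPS and 3 T0+LPS libraries was sequenced on a NextSeq 500. After adaptor removal by cutadapt, the authors used HISAT2 to align reads on the mm10 transcriptome, counted them per RefSeq transcript with featureCounts and deposited raw read counts for 32850 transcript rows, with no normalization. The strand setting is not given in the sources used here. As tested from exon positions, 6696 rows had no unshared base and held 0 reads. The authors' tables of their own comparisons (mean counts, fold values, p-values and gene names) were not used.

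Groups came from the sample labels. Rows of a symbol were summed, and edgeR 4.0.16 (R 4.3.3) was run on each pair of groups with TMM factors, filterByExpr, the quasi-likelihood test and Benjamini-Hochberg adjustment over all genes tested, called at 0.05. The standard error is the absolute log2 fold change divided by the square root of F. A gene was measurable with 200 unshared exon bases, and expressed at 1 CPM in the 3 libraries of a group. Pairs of libraries within groups differed by more than sampling noise (chi-square per degree of freedom 2.63 to 6.67), so all were counted separately. Since p-values rest on the spread between separately differentiated cultures, they say nothing of other sources of variation. Library values are given for Rab genes called with T0, for those called in LPS with an absolute log2 fold change of at least 1 and for the 5 highest in Veh. At most 6 called regulators per comparison are named, those with the largest change. Genes not called were named after their values were seen. The Rab genes, role groups and lists were chosen with earlier results of these data known. Tested on simulated data, the fit recovered 75% of 1.5-fold and 96% of 2-fold changes for LPS against Veh (9559 genes), with 13 false calls, and 71% and 96% for T0+LPS against LPS (9348 genes), with 6. The simulation changed 100 genes of each size, as many up as down, so it held no wide response like that to LPS. Changes as small as those of Rab32, Rab33b and Rab20 with T0 were not simulated. Alternatives were other scalings, filters and row choices, DESeq2 1.42.0, limma 3.58.1 (voom), a fit of all 9 libraries, a replicate block and leaving out each library.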

Additional observations from a re-analysis of the deposited data

How the results depend on the processing

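With library totals in place of TMM factors, 9 Rab genes were called higher and 19 lower in LPS against Veh. Of the genes called with TMM factors, Rab14 (-0.065, adjusted p = 0.14), Rab2b (-0.034, adjusted p = 0.72) and Rab5c (-0.14, adjusted p = 0.0028) changed direction in edgeR. These values follow from the shift of all genes by the scaling. Rab1b, Rab4b, Rab8b, Rab11b, Rab13, Rab24 and Rab33b, not called with TMM factors, were called lower with library totals. Rab2a, Rab5a, Rab6a, Rab7, Rab8a and Rab35 kept their direction and lost the call. DESeq2 lost Rab27a, Rab43 and Rab2b. Without 1 library, 17 to 20 were higher and 9 to 11 lower. Calls were lost for Rab27a without any 1 Veh library or LPS replicate 1, Rab43 without Veh replicate 2 or 3 or LPS replicate 1, Rab2b without Veh replicate 2 or LPS replicate 1, and Rab6a without Veh replicate 1 or LPS replicate 1, with adjusted p up to 0.14 in edgeR. For T0+LPS against LPS, the 2 genes called higher became 1 with library totals, 1 with limma-voom and 0 with DESeq2, and 0 to 1 without 1 library, while 3 had an unadjusted p under 0.05 in DESeq2. The 1 gene called lower became 0 to 1 without 1 library. The number of all genes called in this comparison was 141 without LPS replicate 1, against 297. The replicate numbers did not pair the samples (correlation of deviations -0.01 to 0.05 over the 6 same-numbered pairs), and with the replicate block 18 Rab genes were higher and 11 lower in LPS, and 3 higher and 1 lower with T0. Expressed genes numbered 34 at 5 CPM, 39 at 0.5 CPM and 37 with 500 unshared bases. Rab39 and Rab27a rest on few reads, and for them depth limits what can be seen.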
